A study of Saccharomyces cerevisiae with 6 samples.

Results

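The genes described here encode 10 proteins of the cell wall of budding yeast, Saccharomyces cerevisiae: SPI1, SED1, CWP1, CWP2, PIR1, PIR3, HSP150, YGP1, CCW12 and CCW14. They were picked by name, and their log2 signals in the comparison of mutant with wild type were known when the members were chosen. The mutant against wild-type values of these 10 are therefore given as a description. Counts of them past the threshold used for all genes are given beside the shares of all genes, and are not read as a test. All 10 had a probe set on the array, out of 5449 genes tested, and each was read by a single-gene probe set. For 9 of them the mean log2 signal lay above 7.86, the 25th percentile of all genes, and PIR3 lay below it. Total RNA came from yeast with wild-type histone H2A (3 arrays) and from yeast with H2A R78A (3 arrays), in which alanine stands in place of an arginine of H2A that reaches toward the DNA of the nucleosome. Both groups were grown at 30 °C in rich medium with glucose to an optical density (OD600) between 0.5 and 0.7, which is mid-log growth. The labels give neither the strain background nor how the H2A form is carried, and they do not say that replicates were separate cultures, so p-values measure only how these arrays scatter, and that scatter may be technical. The genotype was not checked, since these probe sets cannot read a point change.

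The yeast cell wall is a mesh of glucan and chitin covered by mannoproteins. One class of wall protein, which includes Spi1, Sed1, Cwp1, Cwp2, Ccw12 and Ccw14, is made with a lipid (GPI) anchor that is later exchanged for a bond to wall glucan. The Pir class, named for its internal repeats, is bound directly to glucan and is cut by the protease Kex2 on its way out, and Pir1, Pir3 and Hsp150 belong to it. Ygp1 is a secreted glycoprotein made when nutrients run short. Some of these genes are strongly expressed in growing cells, as CCW12 and CWP2 are known to be, and others are known to be induced by stress, stationary phase or damage to the wall, as SPI1, YGP1 and PIR3 are.

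The arrays carry the signal intensities deposited by the authors, scaled so that the trimmed mean was 500 on every array. Each difference below is the mean log2 signal of H2A R78A less that of wild type. The median signal of the arrays was 404 in wild type and between 414 and 432 in the mutant. Over all genes, 976 were higher in the mutant and 500 lower by limma's moderated test (Benjamini-Hochberg adjusted p below 0.05), which is 17.9% and 9.18%, or 27.1% together. With the replicate number as a block the shares were 23.7% higher and 15.7% lower, and after quantile normalization they were 10.4% and 9.98%. The difference moved with signal strength, its median being 0.28 in genes below the 25th percentile of mean signal and -0.11 in those above the 75th. After quantile normalization these medians were -0.05 and -0.01.

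The 10 cell wall genes divided into 5 that were higher on every mutant array than on every wild-type array (SPI1, PIR3, CWP1, YGP1 and PIR1) and 5 with small differences (CCW14, CWP2, HSP150, SED1 and CCW12). Log2 differences of the first 5 ran from 0.41 to 1.74 and those of the other 5 from -0.15 to 0.11. In these whole-culture samples a change in the share of cells that make a transcript and a change in the amount per cell cannot be told apart. The median over the 10 was 0.26, against 0.02 over all genes tested. The limma adjusted p was below 0.05 for 5 higher and 0 lower, beside 17.9% and 9.18% of all genes. With the replicate block it was for 5 higher and 1 lower, CCW12, beside 23.7% and 15.7%. CCW12 also passed as lower with median centring, with array weights and without mutant replicate 2. After quantile normalization CWP2 was added, giving 6 higher and 0 lower, beside 10.4% and 9.98% of all genes. The same 6 passed with cyclic loess. The groups did not overlap for 5 members with the mutant above, beside 25.7% of all genes, and for 1 member with the mutant below, beside 17.4%. Nothing is read from these counts or from the single calls, because this contrast was known when the members were picked.

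**Figure D1:**
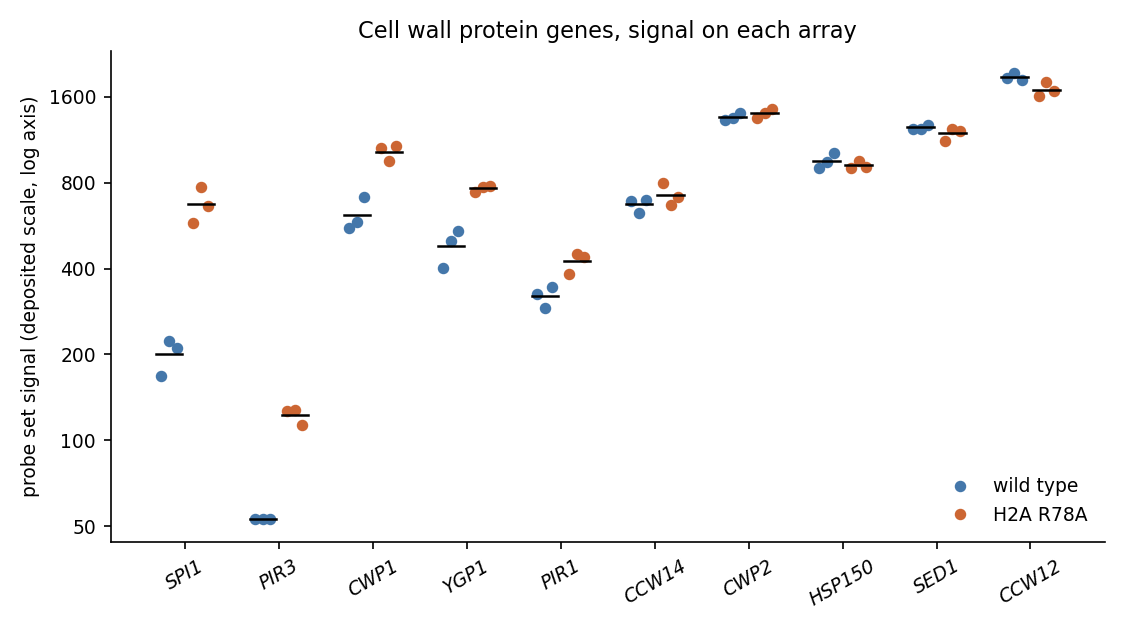
Probe set signal of each of the 10 genes on each array (log axis, deposited scale), with wild-type arrays in blue, H2A R78A arrays in orange and black lines for the group means; levels are to be compared within a gene only. For SPI1, PIR3, CWP1, YGP1 and PIR1 every orange point lies above every blue one, while the points of CCW14, CWP2, HSP150 and SED1 mix.

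SPI1 (YER150W) encodes a GPI-type wall protein that is known to be induced in stationary phase and by weak acids. Its signals were 168, 223 and 211 on wild-type replicates 1 to 3 and 576, 775 and 665 on mutant replicates 1 to 3. The lowest mutant array was above the highest wild-type array, and replicate 1 was the lowest of its group in both. The log2 difference of 1.74 ± 0.18 (SE, n = 3 against 3) was larger than that of 99.8% of the genes, and stayed between 1.62 and 1.85 under all settings that were tried. SED1 (YDR077W), the gene most closely related to SPI1 and the source of a major structural wall protein of stationary cells, gave 1237, 1238 and 1279.7 in wild type and 1124, 1239 and 1218 in the mutant. The SED1 groups overlapped, and the difference of -0.07 ± 0.05 became 0.03 after quantile normalization. The 2 related genes thus had a large difference in one case and one close to 0 in the other.

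YGP1 (YNL160W), for the nutrient-limitation glycoprotein, had signals of 401, 498 and 541 in wild type and 744, 770.1 and 778 in the mutant. The mutant arrays lay close together (764 ± 17.7, mean ± SD), whereas wild type spread more widely (479.9 ± 71.8), and no mutant value reached down to the wild-type range. The log2 difference was 0.68 ± 0.13, or 1.60-fold, and it was also 0.68 after quantile normalization. SPS100, a relative of YGP1 that is known for its part in the spore wall, is not one of the 10 and was tested. SPS100 rose 1.96-fold, from 113 ± 14.8 to 219.8 ± 17.7 (limma adjusted p = 2.29e-04), with every mutant array above every wild-type array. The SPS100 signal is below the 25th percentile of the genes, and its log2 difference of 0.97 was 0.68 after quantile normalization.

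CWP1 (YKL096W) and CWP2 (YKL096W-A) encode GPI-type mannoproteins and are next to each other on the chromosome, both read from the same strand. CWP1 gave 557, 584 and 713 in wild type and 1055, 951 and 1075 in the mutant. All 3 mutant arrays were higher, and the log2 difference was 0.74 ± 0.12, which is 1.67-fold. CWP2, which makes one of the main mannoproteins of growing cells, gave 1327, 1354 and 1403 in wild type and 1346, 1400.4 and 1453 in the mutant. The CWP2 groups overlapped on the deposited scale, with a difference of 0.04 ± 0.04. After quantile normalization all 3 mutant arrays of CWP2 were above the wild-type arrays (1408 to 1500.4 against 1280.5 to 1356), with a difference of 0.16, and cyclic loess gave 0.17. The difference of CWP1 was 0.78 after quantile normalization and 0.80 with cyclic loess, so the neighbours were unequal under each scaling.

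The Pir genes also differed among themselves. PIR3 (YKL163W), known to be induced when the wall is stressed, gave 52.9, 53.0 and 52.8 in wild type and 126, 128 and 113 in the mutant. All 3 mutant arrays were higher, and the log2 difference was 1.21 ± 0.06, or 2.31-fold. The standard error is small in part because the wild-type values were unusually close together. After quantile normalization those values were 60.4, 67.2 and 61.9. The size of the PIR3 difference depended on how dim signals were treated, being 0.79 after quantile normalization, 0.83 with cyclic loess and 0.49 with values under the 10th percentile of each array raised to it. PIR1 (YKL164C), which lies beside PIR3 and points away from it, gave 327, 291 and 344 in wild type and 383, 450.1 and 439.7 in the mutant. All 3 mutant arrays of PIR1 were higher, by 0.41 ± 0.10 on the log2 scale, or 1.32-fold. HSP150 (YJL159W), for a secreted heat-inducible Pir protein, gave 899, 949 and 1019 in wild type and 900.1, 956 and 907 in the mutant. The HSP150 groups overlapped, and the difference of -0.05 ± 0.06 was 0.01 after quantile normalization.

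CCW12 (YLR110C) and CCW14 (YLR390W-A) encode covalently linked wall proteins. CCW12 gave 1864, 1939 and 1831 in wild type and 1614, 1799 and 1672 in the mutant. On the deposited scale every mutant array of CCW12 was lower, and the log2 difference was -0.15 ± 0.05. CCW12 is among the brightest 2% of the genes, and after quantile normalization its groups overlapped with a difference of -0.0016, while cyclic loess gave 0.01. CCW14 gave 693, 626 and 697 in wild type and 797, 668 and 712 in the mutant. The CCW14 groups overlapped, and the difference of 0.11 ± 0.09 was 0.13 after quantile normalization.

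**Figure D2:**
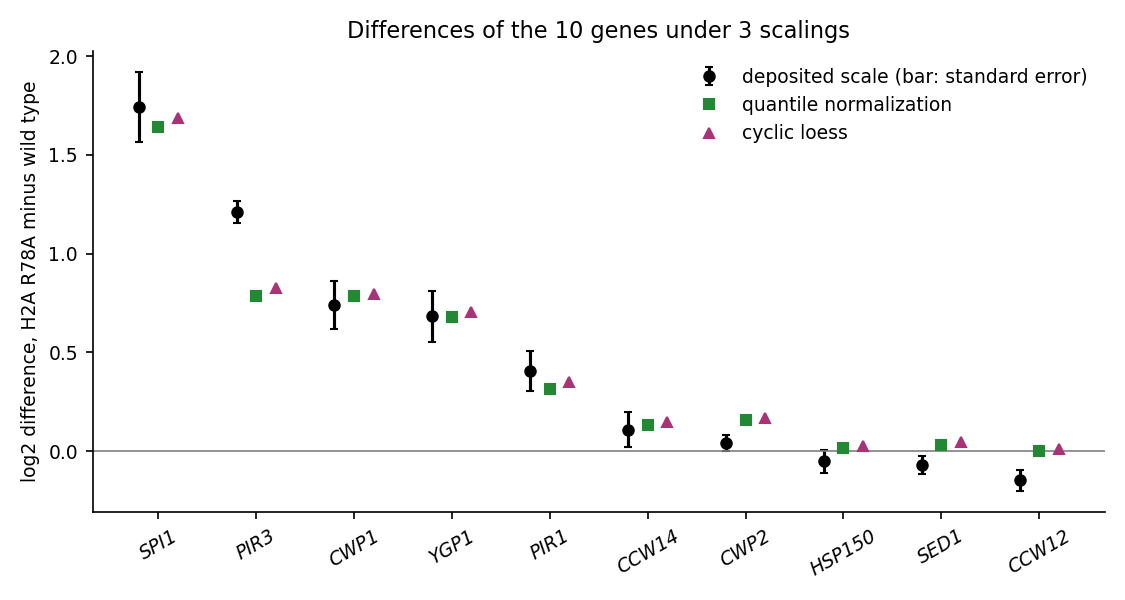
Log2 difference, H2A R78A minus wild type, of the 10 genes on the deposited scale (black, bars are the standard error from 3 against 3 arrays), after quantile normalization (green) and with cyclic loess (purple). The 5 leftmost genes stay above 0.3 under the 3 scalings, and HSP150, SED1 and CCW12 lie slightly below 0 on the deposited scale and within 0.05 of 0 under the others.

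The 5 genes with small differences had mean signals between the 75th and the 99th percentile of all genes, and the 5 with clear differences between the 6th and the 80th. CWP1 lay at the 80th percentile, above CCW14 at the 75th, and had the larger difference. Above the 75th percentile of signal, where CWP1 and all 5 genes with small differences lay, the median difference was -0.11. What signal strength adds to the split was not tested, beyond the scalings given for each gene.

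**Figure D3:**
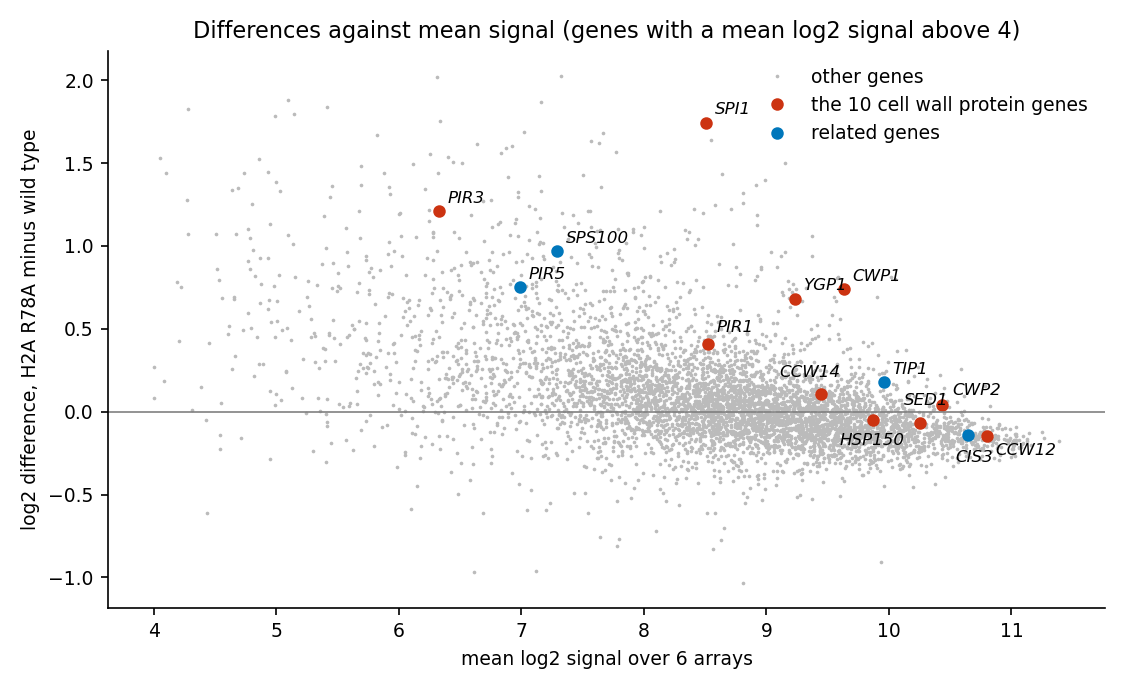
Log2 difference of each gene against its mean log2 signal over the 6 arrays, for genes with a mean above 4, with the 10 cell wall genes in red, 4 related genes in blue and other genes in grey. SPI1, CWP1 and YGP1 stand above the band of genes of similar signal, and CCW12 and CIS3 lie within the downward-bent bright end of that band.

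The other measured relatives of the 10 are not members and were tested. They are SPS100, the Pir-class genes CIS3 and PIR5, and TIP1, a GPI-type mannoprotein gene known to respond to cold shock. PIR5 rose 1.69-fold, from 97.8 ± 3.40 to 165 ± 14.4 (limma adjusted p = 6.12e-04), and was higher by 0.41 after quantile normalization. CIS3 gave 1684 ± 37.4 and 1529 ± 85.1, with a log2 difference of -0.14 (limma adjusted p = 0.0856), and passed as lower with the replicate block (adjusted p = 0.0439), with array weights (0.0131) and without mutant replicate 2 (0.0282). After quantile normalization the CIS3 difference was -0.0012. TIP1 gave 937 ± 73.4 and 1059.7 ± 86.6, with a log2 difference of 0.18 (limma adjusted p = 0.114), and passed as higher with the replicate block (0.0254), with array weights (0.0111), with cyclic loess (0.0433), without wild-type replicate 3 (0.048) and without mutant replicate 2 (0.0297). In all, 2 of the 4 rose and 0 fell, beside 17.9% and 9.18% of all genes. When the replicate block was fitted, 3 rose and 1 fell, beside 23.7% and 15.7%.

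PIR5, HSP150 and CIS3 are consecutive genes of the Pir class on one chromosome, and their differences of 0.75, -0.05 and -0.14 were unequal on the deposited scale. After quantile normalization they were 0.41, 0.01 and -0.0012. The genes that flank this run also differed: FMP33, on the PIR5 side, rose by 1.32 (limma adjusted p = 2.67e-05), and FAR1, an inhibitor of cyclin-dependent kinase in the mating response on the CIS3 side, fell by 0.39 (limma adjusted p = 0.00894). After quantile normalization the differences of FMP33, a dim gene, and FAR1 were 0.99 and -0.53. Beside PIR3, YKL162C rose by 0.95 (limma adjusted p = 5.89e-05), with 133, 144 and 129 in wild type and 262, 276 and 246 in the mutant. On the far side of PIR1, MCD4 of GPI anchor synthesis had a difference of -0.02 (limma adjusted p = 0.903). These neighbours were named after their values were seen.

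**Figure D4:**
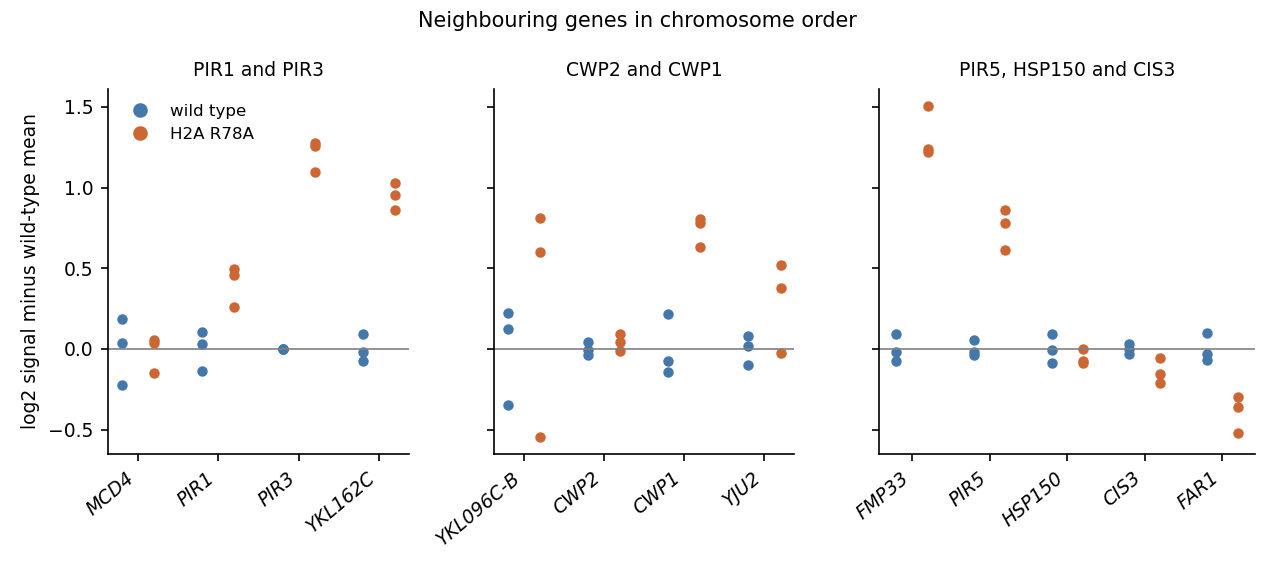
Log2 signal of each array minus the wild-type mean of the gene, for consecutive genes around PIR1 and PIR3, CWP2 and CWP1, and PIR5, HSP150 and CIS3, in chromosome order (wild type blue, H2A R78A orange). PIR3, YKL162C, CWP1, FMP33 and PIR5 have every mutant array above every wild-type array by a wide gap, while MCD4, CWP2 and HSP150 between or beside them do not.

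Among the 16 protein-coding genes directly next to a member that are not members themselves, 15 were measured. Of these 7 were higher at a limma adjusted p below 0.05 and 0 lower, beside 17.9% and 9.18% of all genes. The median difference of the 15 was 0.29. Most of the 7, RAD55, SHU2, YKL162C and PIR5 among them, had mean signals below the 25th percentile of all genes. Over all genes below that percentile the median difference was 0.28. What signal strength adds to the neighbour counts was not tested. After quantile normalization 4 of the 15 passed as higher (RAD55, YKL162C, PIR5 and ECM19), beside 10.4% of all genes, and 0 as lower. These 4 were among the 7, and PIR5 is also counted among the relatives above. The RAD55 gene, of recombinational repair, and SHU2 lie on either side of SED1, and they rose by 0.59 and 0.43 (limma adjusted p = 0.00132 and 0.0102), the SHU2 call ending after quantile normalization (0.382) and with cyclic loess (0.257). SED1 between them had a difference of -0.07. On either side of SPI1, which had the largest difference of the 10, PEA2 and UBP3 had differences of -0.12 and -0.13 and did not pass (limma adjusted p = 0.276 and 0.246).

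Of 21 measured genes of a list of other wall mannoproteins, which includes some surface enzymes, 8 rose and 2 fell. Over all genes 17.9% were higher and 9.18% lower, so the lower count is near the share over all genes. The median difference of the 21 was 0.16, against 0.02 over all genes. After quantile normalization 6 rose and 2 fell, beside 10.4% and 9.98% of all genes. HPF1, for a large mannoprotein known from wine yeast for reducing haze, rose 2.64-fold, from 315 ± 37.8 to 827 ± 21.4 (limma adjusted p = 4.88e-06). ANS1, for a putative GPI protein, rose from 127 ± 25.1 to 322 ± 32.2 (limma adjusted p = 6.39e-05). The ANS1 signal is below the 25th percentile of the genes, and its log2 difference of 1.36 was 1.12 after quantile normalization. NCA3, of the SUN family, rose from 59.1 ± 6.57 to 103 ± 14.7 (limma adjusted p = 0.00235), a dim signal whose call ended after quantile normalization (0.0857) and with cyclic loess (0.0829). FIT2 and FIT3, whose products hold siderophore iron in the wall, fell by 1.03 and 0.49 (limma adjusted p = 1.74e-05 and 0.0237). The FIT3 call ended without wild-type replicate 1 (0.0871) or 3 (0.0569) and without mutant replicate 2 (0.0505) or 3 (0.0537).

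The wall integrity pathway, which runs from wall sensors through the Rho1 GTPase and the kinase Pkc1 to the MAP kinase Slt2 and the factor Rlm1, had 26 measured genes. Of these 3 rose and 3 fell, beside 17.9% and 9.18% of all genes, with a median difference of -0.0040. With the replicate block 5 rose and 5 fell, beside 23.7% and 15.7%. These counts are near the shares over all genes. SDP1, for a phosphatase of Slt2, rose from 42.7 ± 2.61 to 98.4 ± 13.7 (limma adjusted p = 1.88e-04). ROM1, a Rho1 activator, rose from 243 ± 19.3 to 348 ± 24.6 (adjusted p = 0.00213), and BAG7, a Rho1 inhibitor, from 67.3 ± 3.41 to 109 ± 5.99 (adjusted p = 0.00149), a call that ended in limma after quantile normalization (adjusted p = 0.0605) and with cyclic loess (0.0609). The sensor gene MID2 fell from 468 ± 24.0 to 381 ± 19.2 (limma adjusted p = 0.0145), a call that ended without mutant replicate 3 (0.0697). SLT2 itself fell from 1034 ± 109 to 807 ± 122 (limma adjusted p = 0.0301), but this ended after quantile normalization (0.0579), with cyclic loess (0.072), without a variance trend (0.0681) and without wild-type replicate 1 or 2 or mutant replicate 1 or 3 (0.0521 to 0.114). SMI1, also called KNR4, fell by 0.19 (adjusted p = 0.0346). The decrease of SMI1 no longer passed limma after quantile normalization (difference -0.06, adjusted p = 0.389), with cyclic loess (0.428), without a variance trend (0.0826) and when any array other than wild-type replicate 3 was left out (0.0568 to 0.118).

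Of 13 measured targets of Rlm1 outside the 10, 2 rose and 3 fell, beside 17.9% and 9.18% of all genes, and the median difference was -0.06. GSC2, for the stress-induced glucan synthase subunit, rose 1.41-fold, from 557 ± 55.7 to 786 ± 63.1 (limma adjusted p = 0.00213). PST1, for a wall protein, rose from 757 ± 79.5 to 910.3 ± 42.1 (adjusted p = 0.0293), a limma call that ended with median centring (0.0673), without a variance trend (0.0624), without wild-type replicate 1 (0.112) or 3 (0.0568) and without mutant replicate 1 (0.0793) or 3 (0.112). PRM5, a gene known to be induced through this pathway, fell from 730.2 ± 14.6 to 511 ± 24.4 (limma adjusted p = 2.56e-04), with no overlap and under every alternative. GFA1, for the first enzyme of chitin precursor synthesis, fell by 0.32 (limma adjusted p = 0.0254), although its groups overlapped. The GFA1 call ended without a variance trend (0.0576), with cyclic loess (0.0595), without wild-type replicate 1 (0.0956) or 2 (0.0705) and without mutant replicate 1 (0.0829) or 3 (0.105). SLT2, described above, was the remaining lower gene.

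Targets of Haa1, the weak acid factor that is known to act on SPI1 and YGP1, included 6 of 8 that rose and 0 that fell, with a median difference of 0.64, against 17.9% and 9.18% of all genes. After quantile normalization 5 were higher and 0 lower, beside 10.4% and 9.98% of all genes. GRE1, for a small hydrophilic protein, rose from 44.3 ± 7.34 to 149 ± 14.3 (limma adjusted p = 2.60e-05), GPG1 from 174 ± 4.68 to 364 ± 14.4 (limma adjusted p = 1.26e-05) and the phosphatase gene PHM8 from 452 ± 38.6 to 755 ± 58.9 (limma adjusted p = 1.36e-04). The GRE1 signal is dim, and its log2 difference of 1.75 was 1.30 after quantile normalization. The list was chosen with values of some of its genes known.

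Of 12 measured transcription factors of wall and stress genes 2 rose and 0 fell, beside 17.9% and 9.18% of all genes, so the share that rose is near that over all genes. With the replicate block 3 rose and 0 fell, beside 23.7% and 15.7%. The 2 were SMP1 and MSN4, with differences of 0.75 and 0.35 (limma adjusted p = 0.00412 and 0.0421). Both signals are dim, and after quantile normalization neither passed (0.20 and 0.07, limma adjusted p = 0.366 and 0.657). With cyclic loess SMP1 did not pass either (limma adjusted p = 0.280). SWI4 and SWI6, which are also dim, passed as lower in limma after quantile normalization (-0.47 and -0.39, adjusted p = 0.0252 and 0.0271), beside 9.98% of all genes. On the deposited scale their differences were -0.14 and -0.10, and neither passed (limma adjusted p = 0.463 and 0.616). With cyclic loess SWI4 passed as lower (limma adjusted p = 0.046) and SWI6 did not pass (0.0516). The MSN4 call also ended with median centring (0.0649), with cyclic loess (0.496) and without wild-type replicate 1 (0.158) or 2 (0.0715) or mutant replicate 1 or 3 (0.119). HAA1 had a difference of 0.21 (limma adjusted p = 0.0723) and was higher on every mutant array; it passed as higher with the replicate block (0.0373) and with array weights (0.0116). RLM1 had a difference of -0.03 and did not pass in limma under any setting.

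Of 18 genes that make, transfer or remodel GPI anchors, fix proteins to the wall or cut Pir proteins, 0 rose and 2 fell, beside 17.9% and 9.18% of all genes, with a median of -0.03. The share that fell is near that over all genes. The 2 were GPI16 and GPI17 of the complex that attaches the anchor, with differences of -0.29 and -0.30 (limma adjusted p = 0.0115 and 0.0176). The GPI17 call ended without wild-type replicate 2 (0.0519) and without mutant replicate 1 (0.0716) or 3 (0.0622).

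**Figure D5:**
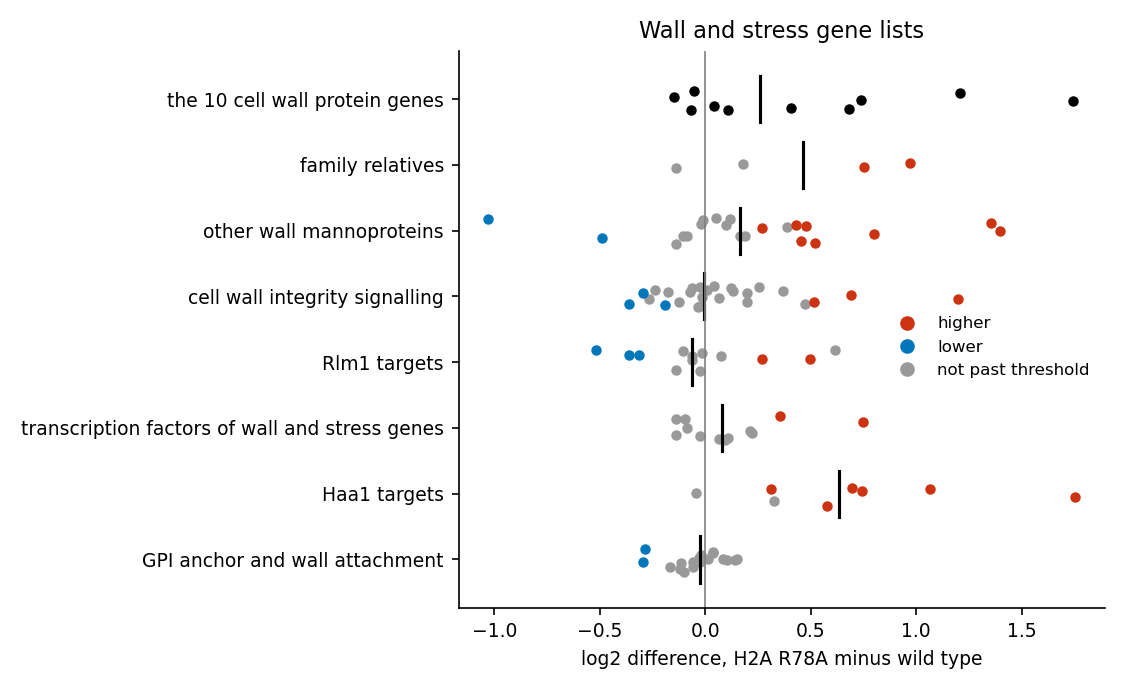
Log2 difference, H2A R78A minus wild type, of each measured gene of the lists, with vertical bars at the medians. Red and blue points passed limma's test as higher or lower, and grey ones did not. The 10 cell wall genes are black because nothing is read from their calls. The median is 0.64 for Haa1 targets and -0.0040 for wall integrity signalling.

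Over the 6 arrays, the genes above the 25th percentile of signal whose centred log2 profiles were nearest to that of SPI1 were RTC3, HSP30 and GPH1, at distances of 0.37, 0.65 and 0.67. RTC3 gave 309, 353 and 355 in wild type and 856, 1024 and 999 in the mutant. For YGP1 the nearest were TPO2, STF1 and ALD4, at distances of 0.17, 0.20 and 0.21, and TPO2 gave 649.8, 842 and 783 in wild type and 1162, 1258 and 1239 in the mutant. As in SPI1 and YGP1, replicate 1 was the lowest array of each group in RTC3 and TPO2. Both were picked for their nearness over these same 6 arrays, so this shared order adds nothing further. These likenesses are a description over 6 arrays.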

How the data were processed

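The authors deposited a table of probe set signal intensities from one-colour Affymetrix arrays, on a linear scale, with the same trimmed mean (2% left out at each end) of 500 on every array. MAS5 and limma are named, per the submitters' processing notes, without versions. No scanner files or detection calls were used here. Of 5900 probe sets 5498 were paired with 1 gene; 12 symbols were updated through RefSeq's R64 gene table, which also gave the order of genes, and for 47 genes the probe set with the highest mean was kept, leaving 5449. Signals were taken to log2 and compared over all genes with limma 3.58.1 in R 4.3.3 (lmFit, eBayes with an intensity trend, two-sided, Benjamini-Hochberg threshold 0.05). The procedure was tested on simulated data. Standard errors of the 10 genes come from the array values alone. The number of arrays limits the precision.

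The members and lists were chosen with earlier results of these data known. Named were the 10 members, their measured relatives, and for each other list up to 3 genes past the threshold in each direction with the largest difference, and the 3 nearest profiles of SPI1 and YGP1; HAA1, RLM1, SWI4, SWI6 and neighbouring genes were added after their values were seen. CCW22, NCW2 and TOH1 were not analysed here, and one list is not reported here. Lists overlap.

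The groups share replicate numbers. Residuals of same-numbered arrays correlated across genes with r = 0.206, 0.383 and 0.427, and those of other pairs with r from -0.449 to 0.154. The number may therefore pair arrays, and it was fitted as a block in an alternative fit. This pairing rests on the check and not on the labels, and is least clear for replicate 1. Adjusted p-values are from the fit without the block unless another setting is named. Other alternatives were quantile normalization, median centring, raised low values, a filter on dim genes, the mean of all probe sets, no variance trend, array weights and leaving out each array; cyclic loess was chosen after seeing the data. Figures were drawn with matplotlib 3.10.9.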

Additional observations from a re-analysis of the deposited data

How the results depend on the processing

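SPI1, PIR3, CWP1, YGP1 and PIR1 were higher in the mutant under every setting that kept them, and the median of the 10 genes lay between 0.20 and 0.30, except that it was 0.11 over 9 genes when dim genes, PIR3 among them, were left out. The total of 1476 genes past the threshold was 811 without dim genes and 2260 with array weights, and 888 to 1686 with 1 array left out. Higher genes numbered 566 after quantile normalization, 622 with cyclic loess and 419 without dim genes, against 976. Lower genes numbered 875 with median centring, 312 without a variance trend, 920 with array weights and 857 with the replicate block, against 500, and 194 to 601 with 1 array left out. Of the genes that passed, 66.1% were higher on the deposited scale, 51.0% after quantile normalization, 60.8% with cyclic loess and 48.1% with median centring. Of the listed genes outside the 10, 31 passed, beside 27.1% of all genes. Without dim genes, where fewer genes were tested, 19 passed, beside 811 of all genes kept. With the replicate block 41 passed, beside 2149 over all genes, against 1476 without the block. Beyond those given above, the block changed no call among the named genes. No named gene that had passed changed direction. The cause of the changes was not tested, and dim genes are the least certain.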

Other observations

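The 3 wild-type signals of PIR3 lay within 0.203 of each other, an SD of 0.0028 on the log2 scale. Only 5 of 5449 genes, PIR3 included, had an SD that small in wild type, and the median SD of the 1362 genes below the 25th percentile of signal was 0.14. After quantile normalization the same 3 arrays gave 60.4, 67.2 and 61.9.

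Within each group the 10 genes did not all shift together. On mutant replicate 2, 8 of the 10 lay above their group mean, and CWP1 and CCW14 lay below it. On wild-type replicate 3, 8 of the 10 also lay above, and PIR3 and CCW12 below. The median deviations of the 10 on these arrays were 0.05 and 0.07 on the log2 scale. The shares of all genes above their group means on these arrays are not given, so nothing particular to the 10 is read from the counts.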
